A study of Homo sapiens with 48 samples.

Results

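The genes described here are the human zinc finger genes that lie outside chromosome 19 and were expressed in the cells studied. They were chosen by symbol and level: protein-coding genes of GENCODE 29, with a symbol of ZNF or ZFP followed by a number, without ZNF598, and with a mean of at least 1 TPM (a share of all transcripts, corrected for gene length) over the 24 steady-state libraries. Of 275 genes with such a symbol off chromosome 19, 211 passed the level, out of 58721 genes in the files. That mean included the auxin-treated libraries. Over the 12 untreated libraries alone 205 of the 211 reached 1 TPM, and over those of CNOT1-AID cells 203 did. The genes just inside the threshold were ZNF391, ZNF517, ZNF821 and ZNF775, with means of 1.04, 1.08, 1.12 and 1.15 TPM. Just outside it were ZNF774, ZNF711, ZNF25 and ZNF438, with 0.852, 0.798, 0.725 and 0.718 TPM.

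The cells were DLD-1, an established human colorectal cancer line, and all 3 lines carried TIR1, the plant protein that on addition of auxin hands proteins bearing an AID tag, an auxin-inducible degron, over for degradation. CNOT1-AID cells have the degron on CNOT1, the scaffold of the CCR4-NOT complex that shortens poly(A) tails, CNOT4-AID cells have it on CNOT4, a ubiquitin ligase that binds the complex, and parental cells have none. In the steady-state set each line was given 1 mM auxin or left untreated, for 8 h or 24 h. In the triptolide set each line, parental cells included, had 1 mM auxin for 2 h and then 1 µM triptolide, a blocker of transcription initiation, for 0, 3, 6 or 12 h. Each set held 24 libraries in 12 groups of 2. The sources used here do not say whether a line is a single clone or whether paired libraries came from separate cultures. The spread that p-values rest on may therefore be technical. In bulk RNA, fewer cells with an mRNA and less of it per cell cannot be told apart.

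The triptolide libraries held 18216427 to 26723618 counts each, and the depth behind the TPM values is unknown. The degron acts on protein, so the mRNA of the tagged genes does not check the depletion. In CNOT1-AID cells auxin lowered the mRNA of CNOT1 (log2 change -0.52 at 8 h and -0.82 at 24 h), and CNOT4 mRNA rose there by 1.66 and 2.03. CNOT4 mRNA did not pass the test in CNOT4-AID cells (0.19 and 0.17, limma adjusted p = 0.445 and 0.237). Without auxin CNOT1 mRNA was already lower in CNOT1-AID than in parental cells (-0.57, limma adjusted p = 3.07e-07). CNOT4 mRNA was higher in untreated CNOT4-AID than in untreated parental cells (0.37, limma adjusted p = 0.000386). Of 15 colon epithelium markers 10 had a mean of at least 1 TPM, and CDX1, VIL1, LGALS4, CEACAM5 and GPA33 did not. For other cell types 1 of 4 blood markers (CD14), 1 of 3 neural (MAP2), 0 of 5 fibroblast and 0 of 3 endothelium markers reached it. A few libraries stood apart. The parental pair at 0 h of triptolide agreed least over the zinc finger genes (r 0.938 with a spread of 0.514, the SD of log2 differences within the pair; every other triptolide pair had r from 0.986 up and a spread no wider than 0.279). In the CNOT4-AID pair at 12 h the share of spike-in ERCC reads was 2.25% in replicate 1 and 3.92% in replicate 2. Of the auxin-treated CNOT4-AID pair at 8 h, replicate 1 had just 30.6% of its TPM in protein-coding genes. Counts that rest on these triptolide libraries are also given below without 1 library at a time. For the CNOT4-AID pair at 8 h the count without replicate 1 is given only within a range over such fits.

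Zinc finger proteins of the C2H2 class are the most numerous family of human transcription factors. Each finger folds around a zinc ion held by a pair of cysteines and a pair of histidines, and rows of fingers read DNA bases. Many carry a KRAB box, which recruits the co-repressor TRIM28 (KAP1) and, through it, the histone methyltransferase SETDB1 and HP1 proteins, and they silence transposable elements and imprinted regions. Others bind RNA or take part in ribosome maturation, splicing or mitosis. The largest clusters of these genes lie on chromosome 19, and the genes elsewhere include more of the old, single-copy members. CCR4-NOT starts the decay of most mRNAs by removing the poly(A) tail, and mRNAs of transcription factors are often short-lived.

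One finger is shown for each of 6 genes that the results turn on, 4 that rose and 2 that fell with auxin in CNOT1-AID cells, so that the coding letters behind the values can be seen. Each stretch of 84 bases is the first finger of a fixed spacing that lies in a single exon, with the linker after it. It was read on the coding strand from the GENCODE 29 transcript on GRCh38. Capitals mark the codons of the zinc-binding cysteines and histidines. They lie at chr11:46704763-46704846 (ZNF408, ENSG00000175213.2, + strand), chr20:18315497-18315580 (ZNF133, ENSG00000125846.15, + strand), chr16:31915054-31915137 (ZNF267, ENSG00000185947.14, + strand), chr7:149474702-149474785 (ZNF746, ENSG00000181220.16, - strand), chr14:21093039-21093122 (ZNF219, ENSG00000165804.15, - strand) and chr12:124012157-124012240 (ZNF664, ENSG00000179195.15, + strand).
ZNF408: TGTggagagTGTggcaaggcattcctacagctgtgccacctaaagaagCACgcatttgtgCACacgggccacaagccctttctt
ZNF133: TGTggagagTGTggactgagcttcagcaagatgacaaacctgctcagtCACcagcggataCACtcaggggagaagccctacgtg
ZNF267: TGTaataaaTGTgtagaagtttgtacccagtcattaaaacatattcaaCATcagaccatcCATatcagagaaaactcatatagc
ZNF746: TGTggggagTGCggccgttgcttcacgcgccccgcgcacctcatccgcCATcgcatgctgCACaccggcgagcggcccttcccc
ZNF219: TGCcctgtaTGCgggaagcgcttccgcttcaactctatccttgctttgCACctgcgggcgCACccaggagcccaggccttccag
ZNF664: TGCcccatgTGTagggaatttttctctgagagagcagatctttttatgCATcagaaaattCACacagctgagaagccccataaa
The spacing of the capitals was set by the search pattern and is therefore the same in all 6, while the bases between them differ. The third codon position was G or C in 89.3% of codons of the ZNF746 finger, 75% in ZNF219, 71.4% in ZNF133, 64.3% in ZNF408, 42.9% in ZNF664 and 28.6% in ZNF267. The genes that rose include both ends of that range.

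The 211 genes lie on 20 chromosomes, with 29 on chromosome 16 and 25 on chromosome 7. Their median mean level was 7.51 TPM (1.04 to 116). The proteins had a median of 569 residues and 9 fingers, up to 33 in ZNF462, and 203 of the 211 had at least 1 match to the C2H2 pattern. The 8 without a match were ZNF185, ZNF330, ZNF487, ZNF503, ZNF703, ZNF720, ZNF839 and ZNF862, so the symbol alone put them here. A KRAB box was found in 93 (44.1%), against 124 of the 152 zinc finger genes on chromosome 19 chosen by the same rule (81.6%). The median share of G or C at the third codon position was 48.4% (26.3 to 90.9), against 58.9% over the tested protein-coding genes. In the last 300 bases of the 3′ UTR, on the mRNA strand, the Pumilio motif TGTANATA occurred in 14 of 180 members with a UTR that long (7.78%) and in 991 of 9199 protein-coding genes (10.8%). The AU-rich motif TATTTAT occurred in 22 (12.2%) and in 1079 (11.7%). Exons of 101 members overlap another gene on either strand, and 25 share at least 10% of their 50-base stretches with another gene's transcripts. The labels name a stranded kit, but whether the counting used strand is not given in the sources used here, so the values of such genes are uncertain.

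Most of these mRNAs rose with auxin in CNOT1-AID cells. At 8 h 173 of the 211 rose and 9 fell (limma, adjusted p under 0.05), where 33% of the 14921 genes tested rose and 29.8% fell. At 24 h 160 rose and 20 fell, where 36.7% of all genes tested rose and 34.8% fell. The median change was 1.00 on the log2 scale at 8 h (quartiles 0.48 and 1.48, range -1.2 to 2.72) and 0.88 at 24 h (quartiles 0.26 and 1.37, range -1.59 to 2.60), where the median over all genes tested was 0 and -0.01. At least 2-fold rises numbered 107 at 8 h and 94 at 24 h, and at least 2-fold falls 1 and 3. Among the tested protein-coding genes 40.1% rose at 8 h and 43.7% at 24 h. Zinc finger genes on chromosome 19 gave 128 higher and 3 lower of 152 at 8 h (median 1.19), and 115 and 11 at 24 h (median 0.90).

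Summed over the 211 genes, the deposited level was 4574 and 4478 TPM with auxin in CNOT1-AID cells at 8 h, against 1663 and 2007 TPM untreated. At 24 h it was 4505 and 4210 TPM with auxin, against 2005 and 1871 TPM untreated. The sums with auxin were more than double the untreated ones, with no overlap. Over the same libraries protein-coding genes took 51.7% to 54.7% of TPM with auxin and 42.6% to 47.2% untreated, and the part of that shift in the sums was not tested. With libraries scaled to the ERCC sequences the median change over all genes tested became 0.41 at 8 h and 0.31 at 24 h, and the members' median became 1.44 and 1.23. Then 194 rose and 2 fell at 8 h, and 172 rose and 8 fell at 24 h. The count of falls at 8 h was 5 without replicate 1 of untreated CNOT1-AID cells.

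**Figure D1:**
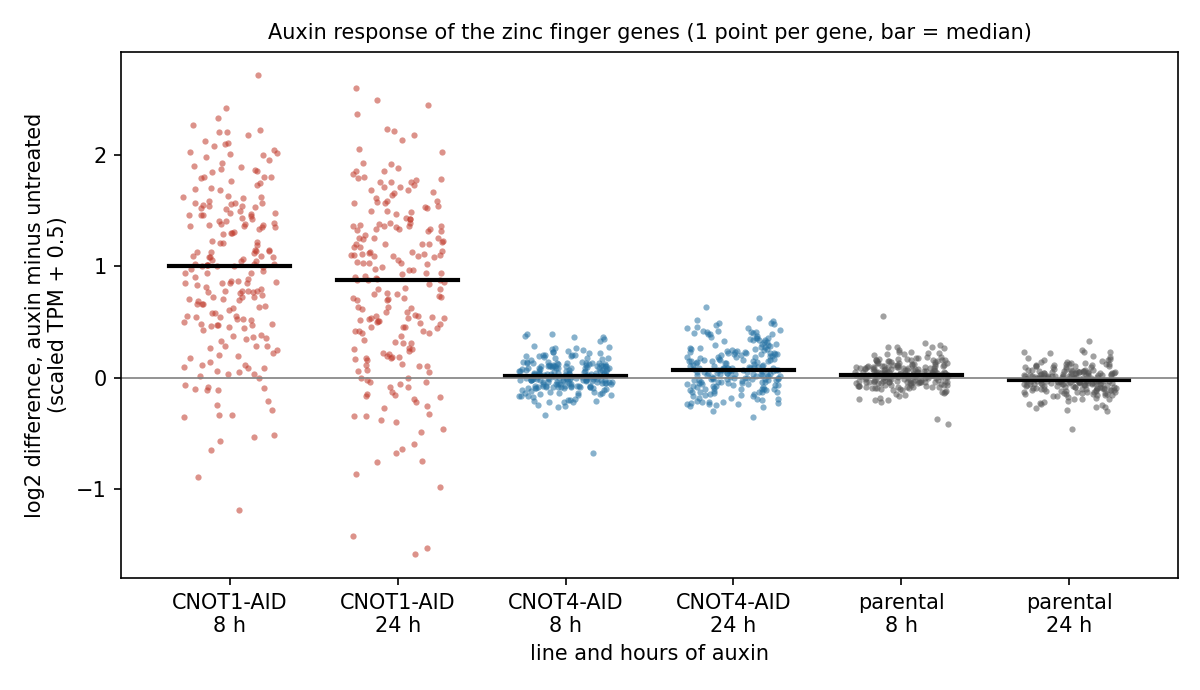
Each point is 1 of the 211 zinc finger genes off chromosome 19, at its log2 change with auxin against untreated in 1 line at 1 time, and the bars mark medians. In CNOT1-AID cells the points centre on 1.00 at 8 h and 0.88 at 24 h, and in CNOT4-AID and parental cells they centre near 0.

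ZNF408, a protein of the retina's blood vessels that is mutated in familial exudative vitreoretinopathy, had the largest rise at 24 h. It stood at 43.6 and 47.1 TPM with auxin at 8 h in CNOT1-AID cells, against 7.40 and 7.75 TPM untreated. At 24 h it stood at 52.2 and 53.6 TPM with auxin, against 7.0 and 6.67 TPM untreated. Every auxin library lay far above every untreated one. Genes named for the size of their change had to have these libraries apart, so that separation is no added evidence. The rises were 2.21 ± 0.091 and 2.60 ± 0.091 on the log2 scale (SE, limma adjusted p = 2.48e-13 at 24 h). In the other lines ZNF408 lay between 5.39 and 8.06 TPM in all 16 libraries, with or without auxin.

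ZNF267, a KRAB protein, rose most at 8 h. It had 34.6 and 30.4 TPM with auxin at 8 h, against 2.96 and 4.37 TPM untreated, and 30.9 and 28.5 TPM at 24 h, against 4.47 and 3.76 TPM. The changes were 2.72 ± 0.11 and 2.45 on the log2 scale (limma adjusted p = 4.79e-12 and 6.41e-12). ZNF133, known as a KRAB repressor although no KRAB box was found in the transcript used, had 17.8 and 15.9 TPM with auxin at 8 h, against 2.06 and 2.27 TPM untreated. At 24 h it had 21.5 and 21.7 TPM, against 2.97 and 2.56 TPM, and the changes were 2.42 ± 0.18 and 2.5 (adjusted p = 4.56e-09 and 1.59e-09). Auxin and untreated libraries of CNOT1-AID cells did not overlap for either gene, as the naming rule required. An annotated antisense gene, AL049646.2, overlaps exons of ZNF133.

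ZNF746 (PARIS), a repressor of PGC-1α and a substrate of parkin, belongs to a row of 8 members on chromosome 7 between 149069643 and 149497817, all of which rose at both times. It had 57.8 and 58.9 TPM with auxin at 8 h, against 9.75 and 11.7 TPM untreated, and 57.2 and 54.9 TPM at 24 h, against 9.49 and 9.54 TPM. The change was 2.11 at 8 h and 2.24 ± 0.063 at 24 h (adjusted p = 2.59e-14 at 24 h). Its neighbours ZNF398 (ZER6, a partner of the estrogen receptor alpha) and ZNF786 rose by 2.27 and 2.33 at 8 h and by 2.22 and 2.14 at 24 h. The 8 genes of the row, with ZNF212, ZNF282, ZNF425, ZNF777 and ZNF783, had medians of 1.53 at 8 h and 1.58 at 24 h (0.54 to 2.24), and their parental mRNAs had a half-life of 3.27 h by the median slope.

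Other large rises included genes of known function. ZNF503, a transcriptional repressor of the NLZ family, had 35.5 and 36.9 TPM with auxin at 8 h, against 5.75 and 6.47 TPM untreated, a rise of 2.19. ZNF513, mutated in a form of retinitis pigmentosa, had 26.7 and 26.5 TPM with auxin at 24 h, against 4.14 and 3.59 TPM, a rise of 2.38. ZNF174, which carries a SCAN domain that lets zinc finger proteins pair, had 52.6 and 48.7 TPM at 24 h, against 8.59 and 9.20 TPM, a rise of 2.18. In none of these did auxin and untreated libraries overlap, as the naming rule required. ZNF830, associated with the spliceosome, and ZNF800, a regulator of enteroendocrine differentiation, rose by 2.06 and 2.04 at 24 h. ZNF250, ZNF16 and ZNF12 rose by 2.23, 2.11 and 2.08 at 8 h.

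**Figure D2:**
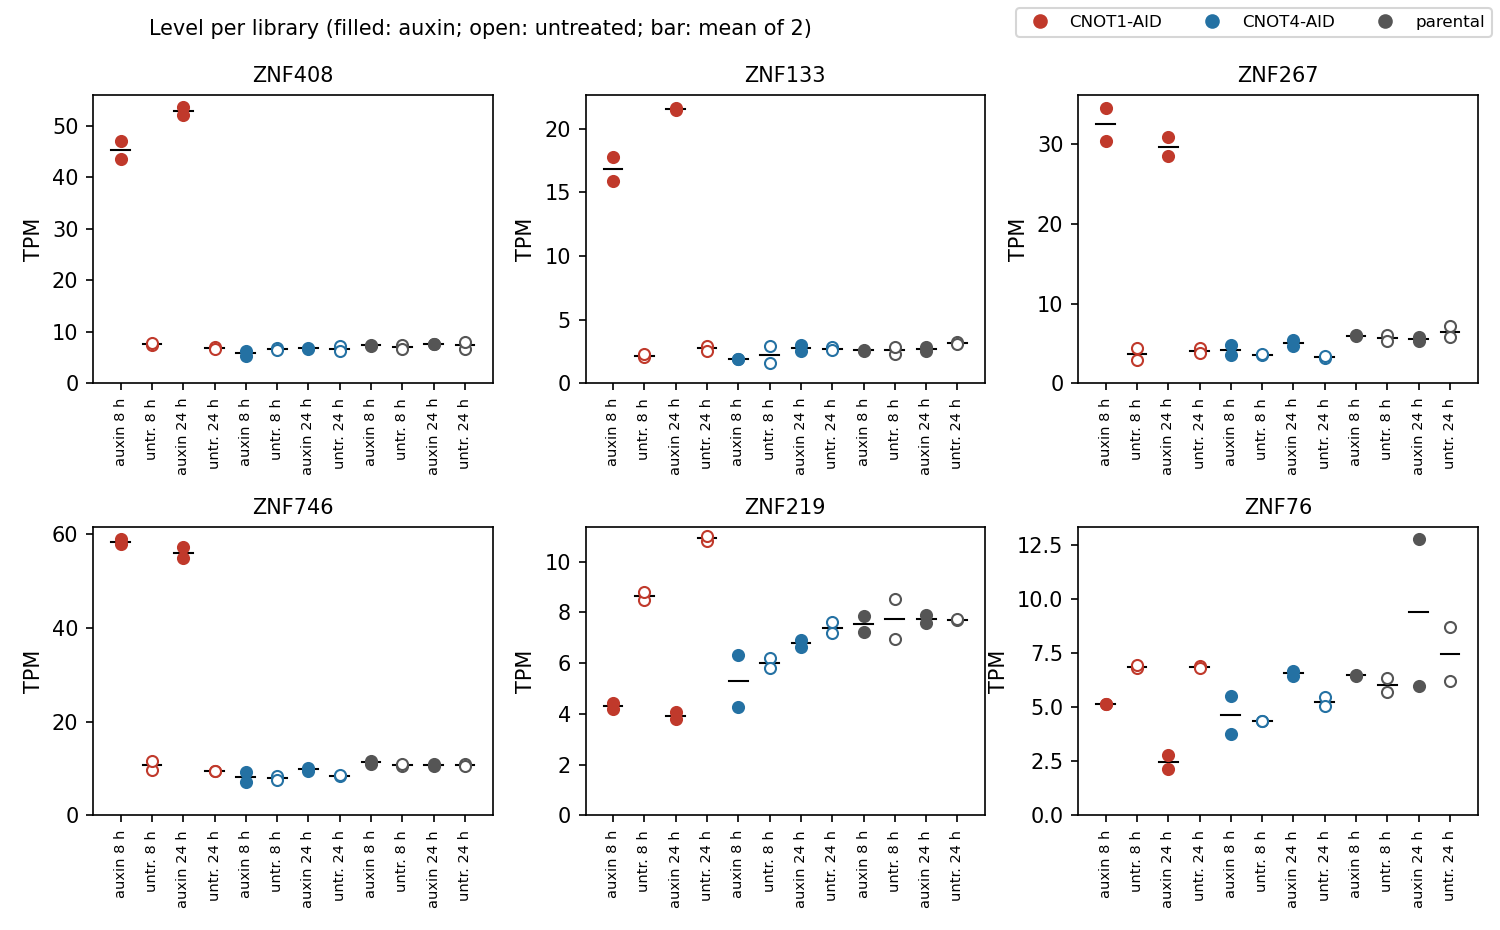
TPM of 6 named genes in each steady-state library, grouped by line, time and treatment. ZNF408, ZNF133, ZNF267 and ZNF746 stand high in the 4 auxin libraries of CNOT1-AID cells and low elsewhere, while ZNF219 stands low in those 4 libraries and ZNF76 in the 24 h pair (2.78 and 2.13 TPM).

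A few members went the other way. ZNF219, which in mouse cartilage acts as a partner of SOX9, had 4.42 and 4.18 TPM with auxin at 8 h in CNOT1-AID cells, against 8.50 and 8.80 TPM untreated. At 24 h it had 3.78 and 4.08 TPM, against 10.8 and 11 TPM. Both auxin libraries lay below both untreated ones at each time, as the naming rule required. It fell by 1.2 (SE 0.094) and by 1.59 on the log2 scale (adjusted p = 9.82e-09 and 1.36e-10). Its exons overlap ARHGEF40 and TMEM253 on the other strand.

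ZNF76, the paralogue of the transcription factor ZNF143, had 2.78 and 2.13 TPM with auxin at 24 h, against 6.91 and 6.83 TPM untreated, and fell by 1.54 (SE 0.22, adjusted p = 9.80e-06). At 8 h it had 5.14 and 5.17 TPM with auxin, against 6.80 and 6.94 TPM, a fall of 0.65 that passed (adjusted p = 0.0177) but was lost with ERCC scaling (0.373), without scaling (0.173) and in 3 fits without 1 library (0.0584 to 0.0929). In parental cells at 24 h its libraries spread widely, with 5.97 and 12.8 TPM with auxin and 6.2 and 8.71 TPM untreated. ZNF704 fell by 0.99 at 24 h, with 7.67 and 7.19 TPM against 12.9 and 12.6 TPM. ZNF664 had 43.3 and 33.7 TPM with auxin at 24 h, against 61.6 and 55.6 TPM, and fell by 0.87 (adjusted p = 5.52e-07), and ZNF276 fell by 0.75. ZNF664 shares exons with RFLNA on its strand and with CCDC92 on the other, and ZNF276 with FANCA and VPS9D1 on the other. At 24 h the auxin libraries of ZNF704 and ZNF664 lay below all their untreated libraries, as the naming rule required. At 8 h those of ZNF664 overlapped. Of the 20 lower at 24 h, 15 had both auxin libraries below both untreated ones in deposited TPM, 4 overlapped and ZNF106 had both auxin libraries above. Of the 9 lower at 8 h, 5 were below and 4 overlapped, while every called rise at either time had its libraries apart. Calls used scaled values, with scale factors of 1.19 to 1.265 in the auxin libraries of CNOT1-AID cells and 0.91 to 1.05 untreated. Deposited TPM thus stand higher with auxin than scaled values do, which favours separation of rises and overlap of falls. The same shares over all called genes were not taken.

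Across both times 153 genes rose at each and 7 fell at each. The genes that fell at both were ZNF185, ZNF219, ZNF655, ZNF664, ZNF688, ZNF704 and ZNF76. ZFP91, ZNF367, ZNF589, ZNF703 and ZNF785 rose at 8 h and fell at 24 h, and ZFP41 fell at 8 h and rose at 24 h. The signed log2 change was higher at 24 h than at 8 h for 20 genes and lower for 56 (limma test of the difference), where it was higher for 17.4% and lower for 18.9% of all genes tested. The 56 include rises that were smaller at 24 h and falls that were larger, as in ZNF76, ZNF219, ZNF704 and ZNF276. With ERCC scaling these counts were 6 and 40, and without scaling 9 and 38. The count higher was 13 without replicate 2 of auxin-treated CNOT1-AID cells at 8 h, and 13 without replicate 2 of untreated cells at 24 h.

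ZNF703, a breast cancer oncogene and the NLZ partner of ZNF503, rose at 8 h and passed as lower at 24 h. It had 84.8 and 89.0 TPM with auxin at 8 h, against 37.6 and 39.9 TPM untreated, a rise of 0.86. At 24 h it had 42.2 and 47.2 TPM, against 44.2 and 46.0 TPM, so the libraries overlapped, although the scaled change passed as a fall of 0.27 (adjusted p = 0.0142). The difference of its responses was -1.13 (adjusted p = 8.41e-06). ZNF316 had 22.8 and 22.9 TPM with auxin at 8 h, against 8.19 and 8.85 TPM, and 8.87 and 9.33 TPM at 24 h, against 8.59 and 8.40 TPM, a difference of -1.24. ZNF695 differed by -1.13. The change of ZNF174 was higher at 24 h by 0.71 (adjusted p = 0.000176) and that of ZNF789 by 0.67, while that of ZNF654 (0.75) was lost with ERCC scaling, without scaling and in 4 fits without 1 library.

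By role, 12 members were listed for work on RNA, ribosomes or mitosis, although ZFP91 on that list is known as a ubiquitin ligase. At 8 h 9 rose (75%) and 0 fell, and at 24 h 7 rose (58.3%) and 2 fell, beside 82% and 75.8% of all 211 members that rose at the same times. No difference of any role list from the other members was tested. ZNF622 and ZNF593, which help to mature the large ribosomal subunit, rose by 1.14 and 1.00 at 8 h and by 1.69 and 1.52 at 24 h. ZNF593 had 154 and 150 TPM with auxin at 24 h, against 42.6 and 44.8 TPM untreated, and ZNF622 had 52.1 and 49.1 TPM, against 13.2 and 12.4 TPM. The nucleolar protein ZNF330 rose by 0.94 and 1.54, the double-stranded RNA binder ZNF346 by 0.66 and 0.62, and ZNF207 (BuGZ), a spindle protein that binds BUB3, by 0.37 and 0.49. ZNF326, part of the DBIRD complex of transcription and splicing, did not pass (0.19 and 0.10, adjusted p = 0.12 and 0.41), nor did ZNF385A (0.01 and 0.31). The 2 lower at 24 h were ZFP91 and ZNF106 (-0.19 and -0.17), whose deposited TPM with auxin did not lie below the untreated levels.

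Of 28 members with roles in chromatin and transcription, 26 rose (92.9%) and 1 fell at 8 h, and 23 rose (82.1%) and 3 fell at 24 h. Of all 211 members 82% rose and 4.27% fell at 8 h, and 75.8% rose and 9.48% fell at 24 h. Over all genes tested 33% rose and 29.8% fell at 8 h, and 36.7% rose and 34.8% fell at 24 h. ZNF217, an oncogene that recruits repressors, had 70.7 and 60.7 TPM with auxin at 24 h, against 15.8 and 15.6 TPM untreated, a rise of 1.76. ZNF281, a regulator of epithelial-mesenchymal transition, rose by 1.36 at 8 h and 1.67 at 24 h, with 52.6 and 49.3 TPM at 24 h, against 13.6 and 12.4 TPM. The libraries of both genes did not overlap. ZNF644, a partner of the methyltransferases G9a and GLP, rose by 1.48 and 1.47, and ZNF592, ZNF687 and ZNF532, which form a complex with ZMYND8, rose by 1.10, 0.74 and 0.78 at 8 h and by 1.25, 0.76 and 1.32 at 24 h. ZNF143, which binds promoters and loop anchors, rose by 0.77 and 1.03, while its paralogue ZNF76 fell at 24 h. ZNF410, an activator of CHD4, rose by 0.45 and 0.46, but 83.5% of its 50-base stretches also occur in transcripts of other genes.

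On the list of KRAB and imprinting roles 11 of 11 members rose at 8 h and 11 of 11 at 24 h, where most of the 211 did (82% and 75.8%). ZNF445 and ZFP57, which keep the methylation of imprinted regions, rose by 0.78 and 0.54 at 8 h and by 0.64 and 0.42 at 24 h. ZFP57 had 15.2 and 14.9 TPM with auxin at 24 h, against 9.86 and 8.77 TPM untreated, and ZNF445 had 15.6 and 14.1 TPM, against 8.09 and 7.47 TPM. ZNF10 (KOX1), the source of the KRAB domain used in CRISPR interference, had 15.3 and 18.2 TPM with auxin at 8 h, against 3.44 and 5.26 TPM, a rise of 1.57, and its rise at 24 h was 0.71. ZNF202, a repressor of lipid genes, rose by 1.15 and 0.79, and ZNF282, which binds the long terminal repeat of HTLV-1, by 1.46 and 1.39. The co-repressor machinery that KRAB proteins use, 14 genes that are not members, gave 8 higher and 3 lower at 8 h, where 33% of all genes tested were higher and 29.8% lower, and 6 higher and 7 lower at 24 h, where 36.7% were higher and 34.8% lower. TRIM28 rose by 0.40 and 0.67 and ATF7IP by 1.17 and 1.54, while the HP1 gene CBX5 fell by 1.01 and 2.08 and DNMT1, the maintenance DNA methyltransferase, by 0.50 and 1.15.

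The KRAB box and the number of fingers divided the set with no test. With a KRAB box 76 of 93 rose and 2 fell at 8 h (median 1.08), and without one 97 of 118 rose and 7 fell (median 0.90). At 24 h the medians were 0.81 and 0.94. By number of fingers, 30 of 45 genes with 0 to 4 fingers rose at 8 h (median 0.61), 63 of 78 with 5 to 9 (1.08) and 80 of 88 with 10 or more (1.08). The correlation of the 8 h response with the number of fingers was weak across the 211 genes (r 0.262, rho 0.301), and that with G or C at the third codon position was weaker (r -0.0665). Genes are not independent replicates, and these values describe the set. Of the 110 members whose exons overlap no other gene, 91 rose and 3 fell at 8 h. Of the 25 that share sequence, 19 rose and 1 fell.

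Neighbouring genes of the symbol rule at most 250 kb apart were chained into clusters, so the ends of a cluster can lie farther apart. Clusters with at least 3 members numbered 13 and held 66 genes, while 115 members had no other within 250 kb. Beside the chromosome 7 row, all 4 members near 43.5 Mb of chromosome 10 rose at 24 h, among them ZNF239 and ZNF32 (median 1.65), as did 6 of 6 at the end of chromosome 8 (median 1.52), 6 of 7 near the start of chromosome 16 (median 1.43) and 6 of 6 at the end of chromosome 12 (median 0.88). The 3 genes ZNF248, ZNF33A and ZNF37A of chromosome 10 had a median of 0.73 at 8 h, where all 3 rose, and of -0.09 at 24 h, where 1 rose. At 24 h the cluster of ZNF124 had 4 of 5 higher (median 1.02), that of ZNF197 3 of 4 (0.61), that of ZNF107 3 of 5 (0.42) and that of ZNF141 1 of 3 (0.16). Falls occurred in that of ZNF48 (7 of 9 higher, 2 lower, 0.55), ZNF394 (2 of 3 higher, 1 lower, 0.70) and ZNF619 (1 of 3 higher, 1 lower, 0.12). Of all 211 members 75.8% rose at 24 h, and of all genes tested 36.7%. Members of a cluster share sequence and neighbourhood and are not independent.

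Auxin without the CNOT1 degron moved few of these genes. In parental cells limma called 0 of 211 at 8 h and 0 at 24 h, where 0.0134% of all genes were higher and 0.0067% lower at 8 h, and 0% in either direction at 24 h. At an unadjusted p under 0.05 there were 7 higher and 2 lower at 8 h, and 3 higher and 3 lower at 24 h. In CNOT4-AID cells 1 rose and 0 fell at 8 h, where 0.241% of all genes rose and 0.0469% fell, and at an unadjusted p under 0.05 there were 14 and 3. The gene was ZNF622 (0.38 ± 0.066, adjusted p = 0.030), with 11.4 and 15.5 TPM with auxin and 10.8 and 11.9 TPM untreated, which overlap. The count was 0 without replicate 1 of the untreated or replicate 2 of the auxin libraries, and with ERCC scaling, no scaling or a replicate block.

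At 24 h in CNOT4-AID cells 15 rose and 0 fell, where 2.09% of all genes rose and 2.42% fell, and the median was 0.07. ZNF678 had 5.64 and 5.00 TPM with auxin, against 2.78 and 3.16 TPM untreated (0.64, adjusted p = 0.0404). ZNF197 had 7.62 and 6.98 TPM, against 4.22 and 4.72 TPM (0.54, adjusted p = 0.0161), and ZNF33A had 7.83 and 7.51 TPM, against 5.08 and 4.79 TPM (0.47, adjusted p = 0.0438). The libraries of all 3 genes were apart, as the naming rule required. These calls rest on few libraries: the count was 0 without replicate 1 of untreated cells, 8 without replicate 2 of untreated cells, 1 without replicate 1 and 0 without replicate 2 of auxin-treated cells. It was also 0 without scaling and 0 with a replicate block, and at an unadjusted p under 0.05 there were 49 higher and 10 lower.

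The responses were then compared between lines. At 8 h the signed log2 change in CNOT1-AID cells was higher than that in parental cells for 160 members and lower for 6 (27% and 23.2% of all genes tested), and at 24 h for 152 and 16 (32.3% and 29.6%). Against CNOT4-AID cells at 24 h it was 144 and 20 (32% and 30.1%). With ERCC scaling the counts lower were 2 at 8 h and 3 at 24 h against parental cells and 9 against CNOT4-AID cells, and without scaling 2, 6 and 9. These comparisons share the CNOT1-AID libraries. ZNF408 differed by 2.53 from its parental and by 2.70 from its CNOT4-AID response at 24 h, and ZNF133 by 2.69 and 2.60. In the other direction ZNF76 differed by -1.78 and -1.72, ZNF219 by -1.61 and -1.36 and ZNF664 by -0.93 and -1.08. The difference of ZNF664 from parental cells at 24 h became -0.52 (adjusted p = 0.0647) with ERCC scaling.

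Loss of these mRNAs after triptolide was followed in counts scaled to the ERCC sequences, a measure that the choice of members did not use. In CNOT1-AID cells 16 of 211 declined (edgeR, 10.9% of the 16806 genes tested), in CNOT4-AID cells 207 (85.6%) and in parental cells 198 (48.3%). None of the 211 passed as rising in any line, where 0.0655% of all genes did in CNOT1-AID, 0.143% in CNOT4-AID and 0.744% in parental cells, and 0 did at an unadjusted p under 0.05. At 3 h a median of 98.4% of the 0 h level was left in CNOT1-AID cells, 37.1% in CNOT4-AID cells and 57.5% in parental cells. At 12 h the median was 78.3% in CNOT1-AID cells, 9.23% in CNOT4-AID cells and 21.6% in parental cells. Summed over the members, the 12 h replicates held 89.4% and 71.9% of the mean 0 h sum in CNOT1-AID cells, 18.2% and 10.0% in CNOT4-AID cells, where the ERCC shares of the pair differ, and 32.3% and 26.3% in parental cells. The half-life of the median slope was 31.6 h in CNOT1-AID cells, 3.64 h in CNOT4-AID cells and 5.68 h in parental cells. With TMM scaling these were 819 h in CNOT1-AID, 7.59 h in CNOT4-AID and 9.32 h in parental cells. The half-life in CNOT1-AID cells lies beyond the 12 h sampled and is extrapolated. From replicate 2 alone it was 17.8 h and from replicate 1 alone 104 h. Without the 12 h libraries the median slope in CNOT1-AID cells was -0.0719 per hour, against -0.0317 with them, so the half-life was shorter.

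**Figure D3:**
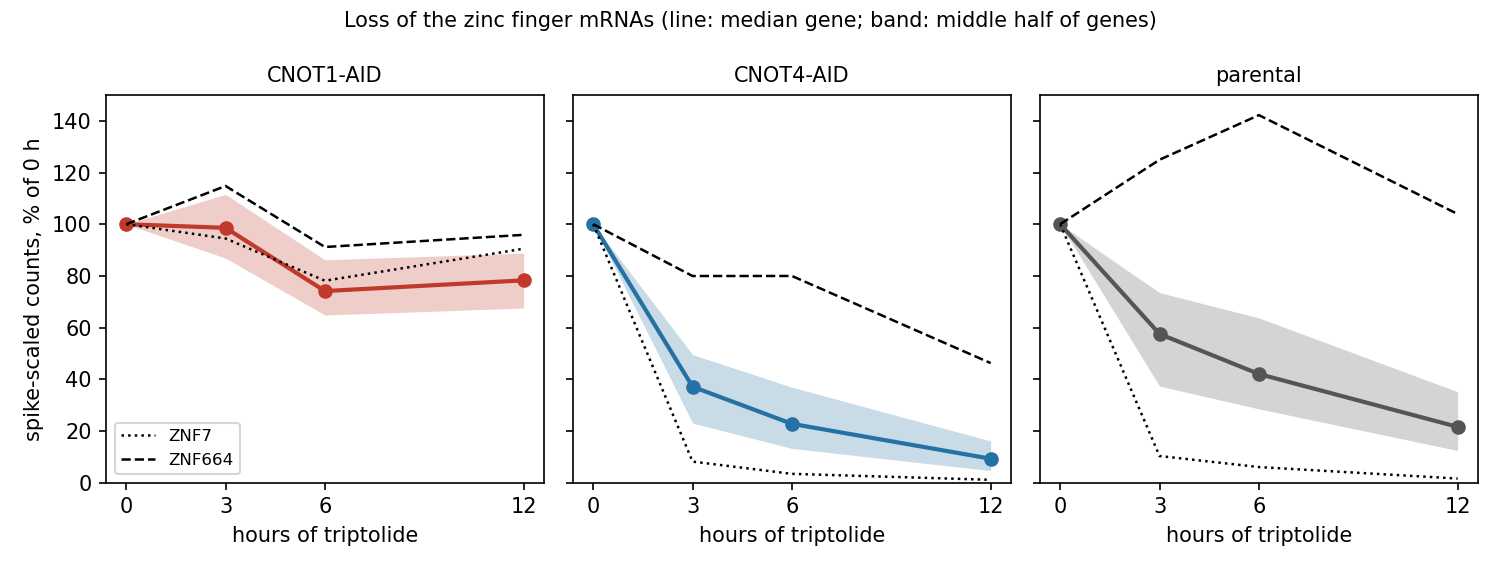
Level in percent of 0 h against hours of triptolide in each line, as the median over the zinc finger genes off chromosome 19 (line) with a band between the quartiles of the genes and with ZNF7 and ZNF664 drawn singly. At 12 h the band spans 67.6% to 88.8% in CNOT1-AID cells, 4.62% to 16.1% in CNOT4-AID cells and 12.4% to 35.2% in parental cells.

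Loss was slower in CNOT1-AID than in parental cells for 134 members and faster for 0 (edgeR test of the slopes), where 18.8% of all genes tested were slower and 0.94% faster. At an unadjusted p under 0.05 there were 159 slower and 0 faster, and DESeq2 called 130 and 0. All triptolide libraries had auxin, so in slopes depletion of a tagged protein cannot be told apart from other differences between the lines. ZNF141 had almost no counts in the tagged lines (given below), so its slopes there measure no loss. It is in the slope counts over 211 but passed neither test of the difference. The difference was positive for 202 of 211, with a median of 0.13 log2 units per hour, against 0.03 over all genes tested. The count was 115 without replicate 1 and 117 without replicate 2 of the parental 0 h pair that agreed least, 82 without the 0 h libraries and 51 without the 12 h libraries. On chromosome 19, 105 of 152 zinc finger genes were slower and 0 faster.

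ZNF7, a KRAB protein, had the largest slope difference. Its scaled counts in CNOT1-AID cells were 1115 and 1217 at 0 h, 957 and 1246 at 3 h, 788 and 1034 at 6 h and 1171 and 940 at 12 h. In parental cells they were 781 and 763 at 0 h, 75.02 and 83.72 at 3 h, 26.7 and 66.0 at 6 h and 6.05 and 18.0 at 12 h. In CNOT1-AID cells the values at 12 h overlapped those at 0 h, while in parental cells most of the mRNA was gone by 3 h. The slopes differed by 0.50 ± 0.089 per hour (adjusted p = 0.000313). In CNOT4-AID cells its half-life was 1.77 h, against 1.95 h in parental cells. Exons of ZNF7 overlap COMMD5 on the other strand.

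ZNF672 had the smallest error among the genes named for their slope, 0.39 ± 0.036 per hour (adjusted p = 1.21e-11). Its scaled counts were 977 and 1000 at 0 h and 1010 and 911 at 12 h in CNOT1-AID cells, against 961 and 526 at 0 h and 34.6 and 20.2 at 12 h in parental cells. ZNF217 had 4671 and 4770 at 0 h and 4305 and 3597 at 12 h in CNOT1-AID cells, against 2165 and 2278 at 0 h and 73.5 and 55.5 at 12 h in parental cells, and differed by 0.39 (adjusted p = 0.00151). Both mRNAs were nearly gone at 12 h in parental cells. ZNF48, ZNF503, ZNF689, ZNF668 (a stabiliser of p53) and ZNF703 differed by 0.48, 0.46, 0.40, 0.40 and 0.38. The imprinted gene ZNF597 differed by 0.39 and lost the call without the 12 h libraries (adjusted p = 0.0545).

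ZNF408 differed by 0.41 ± 0.11 (adjusted p = 0.0127), but a straight line describes it poorly. In parental cells its scaled counts were 525 and 273 at 0 h, 28.6 and 32.6 at 3 h, 19.1 and 19.95 at 6 h and 19.01 and 5.77 at 12 h, so most of the loss came before 3 h. In CNOT1-AID cells they were 865 and 913 at 0 h, 693 and 971 at 3 h, 597 and 668 at 6 h and 749 and 569 at 12 h. The call was lost without the 0 h libraries (0.12, adjusted p = 0.205), without replicate 1 of CNOT1-AID cells at 12 h (adjusted p = 0.0508) and without replicate 1 of parental cells at 0 h (adjusted p = 0.0570). For mRNAs lost this early the fitted slopes understate the first hours.

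Among the genes that fell in CNOT1-AID cells, ZNF219 and ZNF664 had parental slopes near 0, while ZNF76, ZNF655 and ZNF688 declined in parental cells. In parental cells ZNF219 had 541 and 233 scaled counts at 0 h and 389 and 341 at 12 h, and ZNF664 had 4177 and 4557 at 0 h and 5093 and 3985 at 12 h. Neither changed its slope in CNOT1-AID cells by the test (-0.06 and -0.01, adjusted p = 0.348 and 0.932). A set of 7 genes passed as lower at 24 h and as lost more slowly, namely ZFP91, ZNF367, ZNF488, ZNF620, ZNF692, ZNF703 and ZNF706. In ZFP91, ZNF367, ZNF703 and ZNF706 the deposited TPM with auxin and untreated overlapped.

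Set side by side, 116 of the 160 genes higher at 24 h also had slower loss, and 127 of the 173 higher at 8 h. Across the 211 genes the 8 h response correlated with the slope difference (r 0.587, rho 0.608), and for the 24 h response the values were r 0.511 and rho 0.550. Over 11775 protein-coding genes the values were 0.600 and 0.626 at 8 h, so the relation among the zinc finger genes was near that of all. The slopes and the responses come from separate libraries. Ordered by the parental slope in near-equal groups, the 70 genes lost fastest (half-life under 4.62 h) gave 66 higher and 0 lower at 8 h with a median of 1.46. The 71 in the middle gave 62 and 1 with 1.02, and the 70 lost slowest (half-life over 7.02 h) gave 45 and 8 with 0.51. The same held at 24 h, with medians of 1.30, 0.94 and 0.32. The correlation of the 8 h response with the parental slope was r -0.54 across the members and r -0.55 over the 11775 protein-coding genes. At 24 h it was r -0.461 and r -0.463, so this relation too was near that of all.

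**Figure D4:**
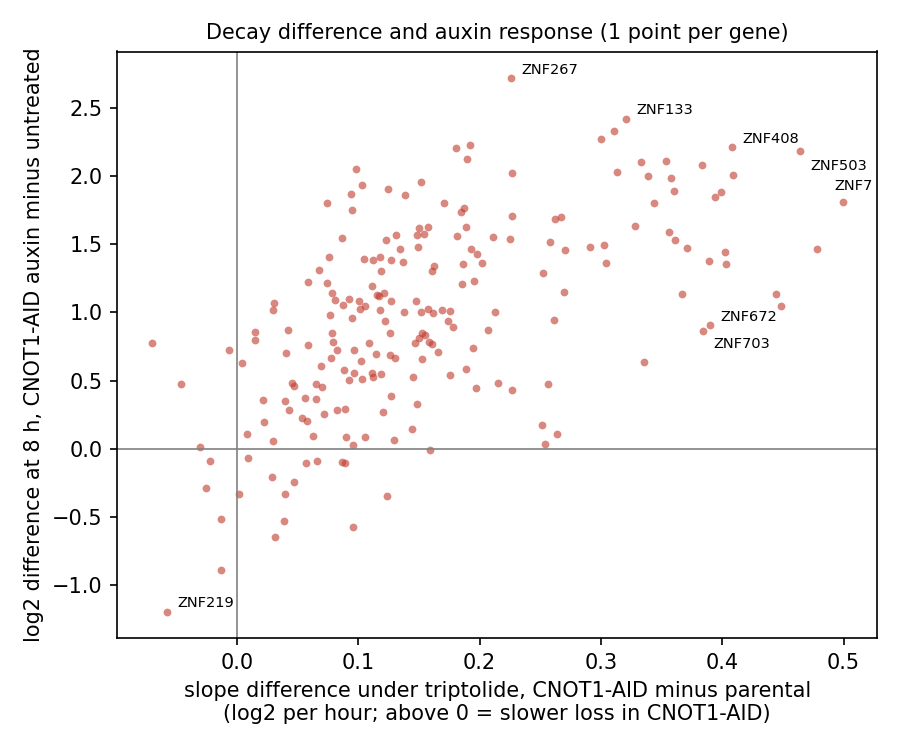
Log2 change with auxin at 8 h in CNOT1-AID cells against the slope difference between CNOT1-AID and parental cells (log2 units per hour), 1 point a gene. The points rise together with r 0.587 over 211 genes. ZNF219 lies low, with a slope difference below 0 that is near the lowest of the 211 genes (-0.07).

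In CNOT4-AID cells all 211 fitted slopes were steeper than in parental cells, with a median difference of -0.09 per hour, but -0.08 was also the median over all genes tested. Of the members 11 passed as faster and 0 as slower (0.845% and 0% of all genes), at an unadjusted p under 0.05 there were 133 faster and 0 slower, and DESeq2 called 66 and 0. ZNF318, ZNF232 and ZNF596 differed by -0.17, -0.16 and -0.15 (adjusted p = 0.0153, 0.0458 and 0.0490). ZNF596 had 209 and 192 scaled counts at 0 h and 11.1 and 7.27 at 12 h in CNOT4-AID cells, against 218 and 224 at 0 h and 38.0 and 31.0 at 12 h in parental cells. The CNOT4-AID pair at 12 h is the one that differed in its ERCC share. The count was 169 without its replicate 1, 0 without its replicate 2, 39 without replicate 1 and 7 without replicate 2 of the parental 0 h pair, and 41 without replicate 2 of parental cells at 6 h. It was 0 without replicate 1 of CNOT4-AID cells at 0 h and 0 without replicate 1 of parental cells at 12 h, and 1 with TMM scaling, so the count turned on single libraries.

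The lines already differed without auxin. In untreated CNOT1-AID cells 8 members were higher and 61 lower than in untreated parental cells (10.1% and 10.6% of all genes tested), and in untreated CNOT4-AID cells 5 were higher and 63 lower (10.5% and 9.74%). Both comparisons use the same parental libraries. On chromosome 19 107 of 152 zinc finger genes were lower in CNOT1-AID and 106 in CNOT4-AID cells. With ERCC scaling the counts lower were 34 and 25, and without scaling 44 and 172. The higher count in CNOT4-AID cells was 2 without replicate 2 of its untreated cells at 8 h, replicate 1 of its untreated cells at 24 h or replicate 1 of untreated parental cells at 24 h, and 3 without replicate 1 of untreated parental cells at 8 h.

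The 5 members on chromosome 7 between 64519884 and 65006684 (ZNF107, ZNF117, ZNF138, ZNF273 and ZNF680) were all lower in both tagged lines, with medians of -1.0 in CNOT1-AID and -0.87 in CNOT4-AID cells. ZNF680 had 2.03, 2.87, 2.97 and 3.07 TPM in untreated CNOT1-AID cells and 1.93, 1.67, 2.25 and 2.46 TPM in untreated CNOT4-AID cells, against 8.53, 8.00, 12.6 and 9.22 TPM in untreated parental cells. The 4 parental libraries lay above all 8 others, as the naming rule required. The differences were -1.60 ± 0.092 and -1.74 (limma adjusted p = 2.38e-09 and 1.05e-09). The 6 members at the end of chromosome 12 were lower in both lines as well (medians -0.51 and -0.47), and so were ZNF141, ZNF718 and ZNF721 near the start of chromosome 4. By single genes ZNF268, a KRAB protein, differed by -0.68 in CNOT1-AID cells, ZNF720 by -0.65 there and by -0.78 in CNOT4-AID cells, and ZNF678 by -0.67 in CNOT4-AID cells.

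ZNF141, chosen after its values were seen (chromosome 4, 337814 to 384864), was close to absent in the tagged lines. Untreated levels were 0.13, 0.24, 0.24 and 0.25 TPM in CNOT1-AID cells and 0.05, 0.09, 0.03 and 0.08 TPM in CNOT4-AID cells, against 5.76, 5.35, 7.02 and 5.86 TPM in parental cells. At 0 h of triptolide it had 1 and 0 counts in CNOT1-AID cells and 0 and 0 in CNOT4-AID cells, against 160 and 293 in parental cells. The steady-state difference was -3.16 ± 0.11 and -3.47 on the log2(TPM + 0.5) scale, which understates it (adjusted p = 4.02e-12 and 1.74e-12). ZNF462, a regulator of chromatin in neural development, was higher in CNOT1-AID cells (3.89, 4.57, 4.90 and 4.76 TPM) and in CNOT4-AID cells (2.17, 2.18, 2.36 and 2.30 TPM) than in parental cells (1.78, 2.38, 1.67 and 1.64 TPM), by 1.12 ± 0.10 and 0.45 (adjusted p = 7.69e-07 and 0.00585). For CNOT4-AID its libraries overlapped those of parental cells.

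**Figure D5:**
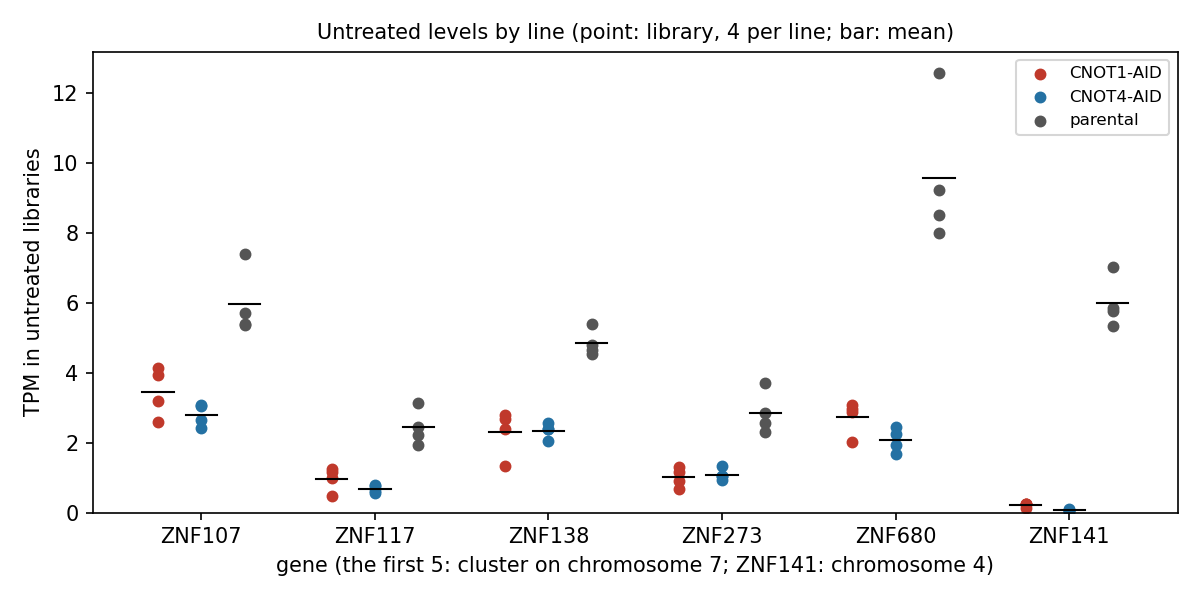
TPM in the untreated libraries of each line for the 5 members of the chromosome 7 cluster and for ZNF141. For each gene the parental libraries stand above all those of CNOT1-AID and CNOT4-AID cells, and ZNF141 lies at or under 0.25 TPM in all libraries of the tagged lines.

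The 0 h libraries of the triptolide set, which had 2 h of auxin and which the choice of members did not use, gave another view of the lines. In CNOT1-AID cells 46 members were higher and 15 lower than in parental cells (9.65% and 4.84% of the 16806 genes tested), and in CNOT4-AID cells 17 were higher and 17 lower (7.88% and 4.09%). DESeq2 gave 45 and 13, and 16 and 18. ZNF462 was again higher, with 682 and 580 counts in CNOT1-AID and 557 and 560 in CNOT4-AID cells, against 206 and 169 in parental cells (1.80 and 1.57, edgeR adjusted p = 1.92e-07 and 9.48e-07). ZNF680 was again lower, with 66 and 70 counts and 52 and 38 counts, against 254 and 571 (-2.49 and -3.14). Neither gene's libraries overlapped between lines, as the naming rule required. In CNOT1-AID cells ZNF597 and ZNF280B differed by 1.06 and 1.04 and ZNF268 and ZNF117 by -0.80 and -0.77, and in CNOT4-AID cells ZNF185, a LIM domain protein, and ZNF202 differed by 0.98 and 0.68 and ZNF268 by -1.12. ZNF516 had 84 and 80 counts in CNOT4-AID cells, against 293 and 227 in parental cells (-1.68, adjusted p = 4.47e-06). All of these rest on the parental pair that agreed least. In CNOT1-AID cells the count higher was 80 without parental replicate 2, 21 without CNOT1-AID replicate 1 and 17 without CNOT1-AID replicate 2. The count lower was 27 without parental replicate 1, 7 without CNOT1-AID replicate 1 and 9 without CNOT1-AID replicate 2. In CNOT4-AID cells the count higher was 30 and 55 without parental replicates 1 and 2 and 11 without CNOT4-AID replicate 1, and the count lower was 40 and 32 without parental replicates 1 and 2 and 9 without CNOT4-AID replicate 2.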

How the data were processed

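RNA of 48 libraries was analysed, 24 steady-state and 24 after triptolide. The authors deposited the steady-state values as TPM, and every column sums to 999998.92 to 1000000.81, so depth is unknown. The authors deposited the triptolide values as raw read counts per gene, whole numbers. Per the submitters' processing notes STAR 2.5.1b, RSEM, DESeq2, SAMtools and featureCounts were used on hg38 (GRCh38), and which tool made which table is not given in the sources used here. GENCODE 29 gave symbols, types and positions. Column names gave the sample of each column, with 0 left over.

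TPM were scaled with TMM and fitted as log2(TPM + 0.5) with limma 3.58.1 (trend, robust) with 1 mean for each of the 12 groups and 12 residual degrees of freedom, for 14921 genes with at least 1 TPM in at least 2 libraries. All 211 zinc finger genes passed both filters. Levels in the text are TPM as deposited, so their ratios differ from the fitted changes, and low genes are understated by the pseudocount. For counts the tool was edgeR 4.0.16 (quasi-likelihood, robust, 16806 genes): slopes per hour of triptolide, with libraries put on a common ERCC scale from the 56 of 92 sequences averaging at least 10 counts, and group means at 0 h, with TMM. A positive slope difference is slower loss. Half-lives beyond 12 h are extrapolated. DESeq2 1.42.0 was an alternative. R 4.3.3, Python 3.11.15 and pandas 2.3.3 were used, and the fits were tested on simulated data. P-values were adjusted by Benjamini-Hochberg over all genes within each contrast (threshold 0.05). Errors are standard errors of the fit, with n = 2 libraries in each group.

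C2H2 fingers and KRAB boxes were found by pattern in the transcript with the longest complete coding sequence in GENCODE 29, and motifs in its 3′ UTR. Members and lists were chosen with earlier results of these data known. Genes were named by size of change among called members that averaged at least 5 TPM (CPM for slopes) and whose libraries were apart. For slopes the replicates each had the same sign instead, and for differences between responses no separation of libraries was required. At most 10 rises and 5 falls were named for CNOT1-AID at 8 h, at 24 h and in slope, and 3 each way elsewhere. Role list members, and genes that make up a small count or a cluster, are named too.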

Additional observations from a re-analysis of the deposited data

Results flagged for a closer look

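The auxin responses differed between lines by limma's test of the difference itself, taken on signed log2 changes. For CNOT1-AID minus parental cells the response was higher for 160 members and lower for 6 at 8 h, and higher for 152 and lower for 16 at 24 h. Over all genes tested the shares were 27% and 23.2% at 8 h, and 32.3% and 29.6% at 24 h. For CNOT1-AID minus CNOT4-AID cells at 24 h the response was higher for 144 and lower for 20 (32% and 30.1% of all genes tested). At 24 h minus 8 h in CNOT1-AID cells it was higher for 20 (9.48%) and lower for 56 (26.5%). Of all genes tested 17.4% were higher and 18.9% lower there. Groups of 2 libraries were too small for a test of a library far from the others.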

How the results depend on the processing

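The 205 members chosen on untreated libraries alone gave 168 higher and 9 lower at 8 h, and 154 and 20 at 24 h, in CNOT1-AID cells. Over named genes 1116 alternative values kept direction and call, 90 lost the call and 1 reversed: ZNF655, CNOT1-AID minus parental response at 8 h, was 0.0682 (adjusted p = 0.836) with ERCC scaling, which raised the median of all genes by 0.46. For the changes below the cause was not tested.

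With ERCC scaling the counts lower were 2 (CNOT1-AID, 8 h), 8 (24 h), 2 and 3 (CNOT1-AID minus parental, 8 h and 24 h) and 9 (minus CNOT4-AID), those higher 0 (CNOT4-AID, 8 h) and 6 (24 h minus 8 h), untreated CNOT1-AID 3 higher and 34 lower, untreated CNOT4-AID 25 lower, 0 h CNOT1-AID 22 higher and 4 lower, and 0 h CNOT4-AID 6 higher and 5 lower. Without scaling they were 2, 10, 2, 6 and 9 lower, 0 and 9 higher, CNOT4-AID at 24 h 0 higher, and untreated CNOT4-AID 1 higher and 172 lower. Median-of-ratios scaling gave CNOT4-AID at 24 h 1 lower and untreated CNOT4-AID 8 higher. Without a filter CNOT4-AID at 24 h had 5 higher, CNOT1-AID minus parental at 8 h 3 lower, untreated CNOT4-AID 2 higher, 0 h CNOT4-AID 11 higher and the CNOT4-AID slope 7 faster. For slopes, TMM gave CNOT1-AID 8 faster and CNOT4-AID 1. Without 0 h there were 82 slower and 0 faster, and without 12 h 51 slower and 1 faster in CNOT1-AID and 0 faster in CNOT4-AID. DESeq2 gave 66 faster in CNOT4-AID. Half-lives of the median slope with TMM were 819 h, 7.59 h and 9.32 h in CNOT1-AID, CNOT4-AID and parental cells. Without 0 h they were 4.68 h in CNOT4-AID and 6.90 h in parental cells, and without 12 h 2.85 h and 4.74 h. In CNOT1-AID cells the median slope per hour was -0.0317 in the main fit, -0.0312 without 0 h and -0.0719 without 12 h. The half-life there was therefore shorter without 12 h.

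Whether same-numbered libraries share more than a number is not given in the sources used here. The correlations of their deviations were -0.21 to 0.10 in the steady-state set and -0.19 to 0.04 in the triptolide set. A replicate block gave 172 higher and 8 lower at 8 h, and 159 and 19 at 24 h, in CNOT1-AID cells, 127 slower in CNOT1-AID, 0 higher in CNOT4-AID at 8 h and 0 at 24 h, and 2 faster in CNOT4-AID. With the numbers crossed for CNOT1-AID at 8 h, added after seeing the data, it gave 173 and 8, and for CNOT4-AID at 0 h 18 and 16.

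Leaving out 1 library, counts ranged as follows, higher then lower. CNOT1-AID at 8 h gave 166 to 174 and 5 to 8, at 24 h 152 to 159 and 15 to 19. CNOT4-AID gave 0 to 1 and 0 at 8 h, and 0 to 8 and 0 at 24 h, and parental cells 0 and 0 at both times. CNOT1-AID minus parental gave 151 to 164 and 4 to 6 at 8 h, 142 to 151 and 12 to 15 at 24 h, and minus CNOT4-AID 139 to 142 and 15 to 18. The 24 h minus 8 h difference gave 13 to 21 and 41 to 68. Untreated CNOT1-AID gave 6 to 10 and 44 to 75, and untreated CNOT4-AID 2 to 6 and 45 to 72. At 0 h CNOT1-AID gave 17 to 80 and 7 to 27, and CNOT4-AID 11 to 55 and 9 to 40. Slopes gave 92 to 137 slower and 0 faster in CNOT1-AID, and 0 slower and 0 to 169 faster in CNOT4-AID. Half-lives from 1 replicate were 17.8 to 104 h in CNOT1-AID, 3.37 to 4.15 h in CNOT4-AID and 5.66 to 5.94 h in parental cells. A lone library is taken to vary like the other groups.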
